A study of Homo sapiens with 9 samples.

Results

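The alpha-like and beta-like globin genes are the 8 genes that encode the protein chains of hemoglobin in the cells of the red lineage. They were taken from the sense strand of 2 windows of GRCh37 (hg19). The beta-like window spans 5.246 to 5.292 Mb of chromosome 11 on the minus strand and holds HBE1, HBG2, HBG1, HBD and HBB, and the alpha-like window spans 0.202 to 0.234 Mb of chromosome 16 on the plus strand and holds HBZ, HBA2 and HBA1. These are 8 of 20,136 annotated protein-coding genes. The 2 windows held 1,089 of the 3,688,019 listed small RNA alignments on the sense strand, of which 834 lay in the beta-like window and 255 in the alpha-like window, and 934 lay in the bodies of the 8 genes. The sequenced material was small RNA of K562, a chronic myelogenous leukemia line, from 3 biological replicate batches for which the labels give no treatment, and the deposited values pool them. The other 6 samples are HEK293 cells, transfected with a pool of vectors that overexpress small non-coding RNAs (sncRNAs), with or without doxycycline (Dox), or with a control vector without Dox, and they were not analysed here. With the batches pooled there is no replicate error for any value below, so no difference was tested against the spread between batches, and the 95% Wilson intervals cover counting error only.

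Hemoglobin is a tetramer of alpha-like and beta-like chains, each of which holds a heme group that binds oxygen. The genes of each cluster are expressed in a developmental order. In the beta-like cluster, HBE1 encodes the embryonic epsilon chain, HBG1 and HBG2 the fetal gamma chains, HBD the delta chain of a minor adult hemoglobin and HBB the adult beta chain, which is the chain altered in sickle cell disease and beta thalassemia. In the alpha-like cluster, HBZ encodes the embryonic zeta chain and HBA1 and HBA2 encode the same alpha chain of fetal and adult hemoglobin. K562 cells are known as a model of embryonic and fetal globin expression.

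Reads below are recovered reads, meaning the deposited count of an alignment divided by its number of near neighbours on the same strand, itself included, since the deposited counts were found to be multiplied by that number. Unless stated otherwise, alignments of at least 18 nt were counted, an exonic read overlaps an exon of 1 representative transcript per gene by at least 1 nt, and levels are exonic reads per kb of exon. The list holds alignments and not read bases, so that every sequence below is that of the reference at the alignment. Small RNA reads in mRNA exons are pieces of transcripts, and their number is not a measure of the amount of mRNA or of globin protein.

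The alignments with the most exonic reads in each gene or gene pair other than HBB show which stretches of the globin mRNAs the sncRNAs came from, and are given first, with no capitals because no base in them is singled out. Of alignments with equal reads, as in HBG2 and HBD, the longest is given. In HBE1 it was the sequence at chr11:5290845-5290864 (5 reads). In HBG1 and HBG2 it was 1 sequence shared by both genes, at chr11:5269652-5269677 (9 reads) and chr11:5274570-5274595 (6 reads). In HBD it was the sequence at chr11:5255221-5255247 (2 reads), which also occurs without mismatch in HBB. All of these alignments lie on the minus strand. In HBZ it was chr16:202915-202934 (2 reads), and in HBA2 and HBA1 it was 1 sequence shared by both genes, at chr16:222892-222909 (10 reads) and chr16:226696-226713 (11 reads), on the plus strand.
HBE1, exon 2: ctttggaaacctgtcgtctc
HBG1 and HBG2, exon 3: tcggcaaagaattcacccctgaggtg
HBD, exon 2: ctgcacgtggatcctgagaacttcagg
HBZ, exon 1: ctgaccaagactgagaggac
HBA1 and HBA2, exon 1, 5′ UTR: agactcagagagaaccca
The shared alpha globin sequence of 18 nt had the highest deposited RPKM of any alignment in the 8 genes, at 92.4 in HBA2 and 79.0 in HBA1. Deposited RPKM rests on the multiplied counts, here 90 in HBA2 and 77 in HBA1, so that its order is the reverse of that of the recovered reads. None of these alignments held more than 11 reads, and a single alignment held 2.40% of the exonic reads of HBE1, 3.35% of those of HBG1 and 2.14% of those of HBG2, against 9.35% for HBA2 and 10.9% for HBA1. Over the 441 protein-coding genes with at least 100 exonic reads the median of this share was 7.41% (quartiles 3.70 to 31.5%), so that the values of HBE1, HBG1 and HBG2 lay below the lower quartile.

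Together the 8 genes held 996 exonic reads, of which 772 (77.5%, interval 74.8 to 80.0%) lay in the beta-like genes and 224 (22.5%, 20.0 to 25.2%) in the alpha-like genes. At least 10 exonic reads were found for 7 of the 8 genes, all but HBB, where 38.7% of all protein-coding genes reached that number. The order of levels, from the highest, was HBG2, HBG1, HBE1, HBA2, HBA1, HBZ, HBD and HBB. Without replicate values, whether neighbours in this order differ was not tested, and HBG2 and HBG1, and HBA2 and HBA1, share most of their sequences. The median level of the 8 genes was 180 reads per kb, against 1.43 over all protein-coding genes, of which 6,002 had no exonic read. The globin exonic reads were 0.262% of the 379,603 sense exonic reads of protein-coding genes outside annotated small RNA genes.

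**Figure D1:**
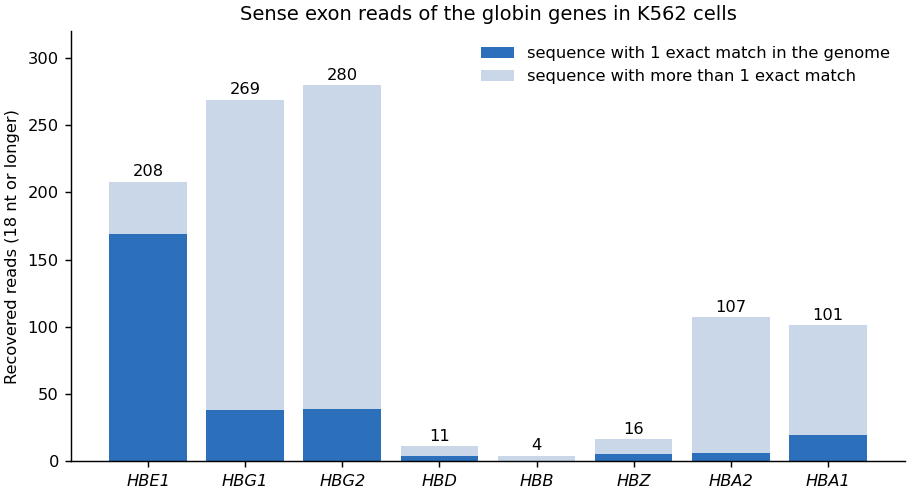
Sense exonic reads of at least 18 nt (vertical axis, recovered reads) for the 8 globin genes in the pooled K562 batches, with the dark part of each bar standing for sequences with 1 exact match in the genome and the light part for the rest. HBG2 (280), HBG1 (269) and HBE1 (208) hold the most reads and HBB (4) the fewest, and the dark part makes up most of the bar in HBE1 and a minor part in HBG1, HBG2, HBA1 and HBA2.

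HBE1, the embryonic epsilon gene (ENSG00000213931.7, chr11:5289575-5291175), held 208 exonic reads, or 334 per kb, and ranked 37 of all protein-coding genes. HBG1 (ENSG00000213934.9, chr11:5269499-5271087) held 269 exonic reads, or 458 per kb, at rank 24. HBG2 (ENSG00000196565.15, chr11:5274418-5276011) held 280 exonic reads, or 478 per kb, at rank 19. HBE1, HBG1 and HBG2 together held 757 of the 772 beta-like exonic reads (98.1%, interval 96.8 to 98.8%). In the order of all protein-coding genes, the 3 genes next above HBG2 were the histone genes H2AC11 (533 per kb) and H3C2 (522.5 per kb) and the gene ENSG00000285133 (524 per kb). The 3 next below it were the histone gene H2AC17 (476 per kb), ENSG00000284931 (469 per kb) and the glycogen synthase gene GYS1 (465 per kb), where ENSG00000284931 overlaps HBG1 and HBG2 and counts the same reads.

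HBD, the delta gene (ENSG00000223609.11, chr11:5254068-5255713), held 11 exonic reads, or 17.7 per kb, and ranked 1,510. HBB, the adult beta gene (ENSG00000244734.4, chr11:5246694-5248301), held 4 exonic reads, or 6.37 per kb, just above the 4.78 per kb that 3 reads would give. None of the 4 reads is particular to HBB. The sequences of 2 of them also occur without mismatch in HBD and HBE1, and those of the other 2 in HBD, HBE1, HBG1 and HBG2. With alignments of every length HBB had 7 reads, and still 0 of 7 had a sequence with 1 exact match in the genome, although 67.6% of the stretches of 20 nt in its exons have 1 match. In HBD, 4 of 11 reads had a single match, 3 also matched HBB, 1 matched HBB and HBE1, and 3 matched HBB, HBE1, HBG1 and HBG2. The reads of HBB and HBD lay in the coding sequence, in exon 2 for HBB (4 reads) and in exons 1 (4 reads) and 2 (7 reads) for HBD, and none lay in a UTR.

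HBZ, the embryonic zeta gene (ENSG00000130656.6, chr16:202643-204502), held 16 exonic reads, or 20.1 per kb, and ranked 1,292. Of these, 5 had 1 match in the genome, 8 also matched the pseudogene HBZP1 and 2 matched HBZP1, HBA1 and HBA2. HBA2 (ENSG00000188536.13, chr16:222875-223709) held 107 exonic reads, or 186 per kb, at rank 76. HBA1 (ENSG00000206172.8, chr16:226679-227521) held 101 exonic reads, or 175 per kb, at rank 82. The pair HBA1 and HBA2 thus held 208 of the 224 alpha-like reads, against 549 reads in the fetal pair HBG1 and HBG2.

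**Figure D2:**
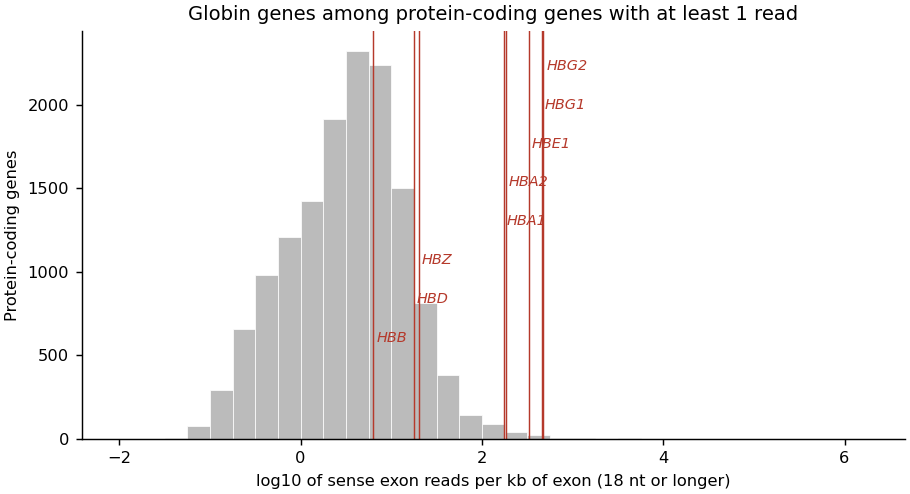
Number of protein-coding genes (vertical axis) by the log10 of sense exonic reads per kb of exon (horizontal axis), for genes with at least 1 read, with a vertical line for each globin gene. HBG2 (478 per kb), HBG1, HBE1, HBA2 and HBA1 (175 per kb) stand in the upper tail, HBZ and HBD lie at the 93.6 and 92.5 percentile of all protein-coding genes, and HBB (6.37 per kb) at the 76.8 percentile.

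The copies within each pair cannot be separated for most reads. The mRNAs of HBG1 and HBG2 differ at 4 bases and 1 gap (99.3% identity), and those of HBA1 and HBA2 at 19 bases and 1 gap (96.7% identity), all of them in the 3′ UTR. Although the methods state that uniquely mapping reads were kept, only 280 of the 996 globin exonic reads (28.1%, interval 25.4 to 31.0%) lay on a sequence with 1 exact match in the genome. The share was 81.3% (75.4 to 86.0%) in HBE1, 14.1% (10.5 to 18.8%) in HBG1, 13.9% (10.4 to 18.5%) in HBG2, 5.61% (2.60 to 11.7%) in HBA2 and 18.8% (12.4 to 27.5%) in HBA1. For comparison, 90.3% of the stretches of 20 nt in the exons of HBE1 have a single match, 17.2% in HBG1, 16.6% in HBG2, 16.8% in HBA2 and 15.8% in HBA1.

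Reads whose sequence occurs in both copies were divided almost evenly. HBG1 held 229 of 468 such reads of the fetal pair (48.9%, interval 44.4 to 53.5%), and HBA1 held 82 of 183 of the alpha pair (44.8%, 37.8 to 52.0%). In the fetal pair, 71 sequences were listed at both genes, with 122 reads at HBG1 and 113 at HBG2. In the alpha pair, 17 sequences were listed at both, with 43 reads at HBA1 and 45 at HBA2. The values of the separate copies are therefore best read as sums over a pair.

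Reads with 1 match are the ones that tell the copies apart. The most abundant of them in each copy are given with capitals at the bases that differ from the other copy. They lie at chr11:5270666-5270686 in HBG1 (4 reads), chr11:5274420-5274447 in HBG2 (4 reads, 1 of 2 alignments with that number), chr16:227497-227518 in HBA1 (3 reads) and chr16:223674-223694 in HBA2 (3 reads).
HBG1, coding sequence: Caaagcacctggatgatctca
HBG2, 3′ UTR: aataaatctattctgctAagagatcaca
HBA1, 3′ UTR: ttgaataaagtctgagtgggcG
HBA2, 3′ UTR: cTTcCtggtctttgaataaag
HBG1 held 38 of the 77 single-match reads of the fetal pair (49.4%, interval 38.5 to 60.3%). The division differed along the mRNA. In the following differences the base of HBG1 comes first and positions count from 1 at the 5′ end of the mRNA of HBG1. At C280T, in the coding sequence, 9 reads lay on HBG1 and 2 on HBG2, and at C463G, also in the coding sequence, 11 lay on HBG1 and 5 on HBG2. At T514G, in the 3′ UTR, 10 lay on HBG1 and 17 on HBG2, and at G575A, near the 3′ end, 6 lay on HBG1 and 13 on HBG2. HBG1 thus held 20 of 27 single-match reads in the coding sequence (74.1%, interval 55.3 to 86.8%) and 18 of 50 in the 3′ UTR (36.0%, 24.1 to 49.9%). In the alpha pair, HBA1 held 19 of 25 single-match reads (76.0%, 56.6 to 88.5%). These counts are small, and bases of the K562 genome that differ from the reference would not show in them.

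Reads covered nearly the whole of the embryonic and fetal mRNAs of the beta-like cluster. At least 1 read covered 93.1% of the 623 nt of HBE1, 91.7% of the 587 nt of HBG1 and 91.6% of the 586 nt of HBG2. In the alpha pair, 56.8% of the 576 nt of HBA2 and 62.0% of the 577 nt of HBA1 were covered, and in HBZ, HBD and HBB 32.1%, 14.5% and 7.01%. Coverage was uneven. The highest coverage of a base was 3.31 times the mean in HBE1, 6.73 times in HBG1, 5.88 times in HBG2, 13.4 times in HBA2 and 11.1 times in HBA1. It stood at position 17 of the mRNA in both HBG1 (67 reads) and HBG2 (61 reads), at position 21 in both HBA2 (50 reads) and HBA1 (40 reads), and at position 353, in exon 2, in HBE1 (24 reads). Every counted alignment over that base of HBE1 has a sequence that also occurs in HBG1 and HBG2, so that none of these reads is particular to HBE1. At positions 111 and 112 of HBE1, also in the coding sequence, 23 reads lay on sequences with 1 match.

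The base of highest coverage lay in the 5′ UTR in the fetal and alpha pairs. In HBE1 it lay in the coding sequence, on sequences shared with HBG1 and HBG2. By mean coverage the 5′ UTR was the highest part in HBE1 as well, at 7.87 reads against 7.40 in the coding sequence and 6.48 in the 3′ UTR. In the fetal pair, 145 of 549 exonic reads (26.4%, interval 22.9 to 30.3%) were assigned to the 5′ UTR, which makes up 9.04% of the mRNA length. In the alpha pair, 92 of 208 reads (44.2%, 37.6 to 51.0%) were assigned to the 5′ UTR, which makes up 6.42% of the length. In HBE1, 20 of 208 reads (9.62%, 6.31 to 14.4%) were assigned to a 5′ UTR of 8.83% of the length. Reads per nt in the 5′ UTR were 12.3 times those in the coding sequence for the alpha pair, 3.81 times for the fetal pair and 1.07 times for HBE1. Over 421 genes with at least 100 exonic reads the median of this ratio was 2.58 (quartiles 0.550 to 8.42), so that the alpha pair lay above the upper quartile and the fetal pair and HBE1 within the quartiles.

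The reads at the 5′ end of the fetal mRNAs included short alignments. Over all lengths, the most abundant alignment in the 5′ UTR of HBG1 was one of 15 nt at chr11:5271066-5271080 (6 reads), and in HBG2 it was 1 of 3 alignments with 4 reads each, of 15, 16 and 21 nt. The one of 21 nt, at chr11:5275990-5276010, ends on the same base of the mRNA as that of HBG1, at position 22. They are given in lower case throughout. Both sequences occur without mismatch in both genes, and the one of 15 nt has 3 exact matches in the genome. The shared end therefore cannot be told apart from reads of 1 gene listed at both.
HBG1, 5′ UTR: cttctggaacgtctg
HBG2, 5′ UTR: cactcgcttctggaacgtctg
In HBG1 and HBG2, 3 reads each began on the first base of the annotated mRNA.

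Ends of reads were spread over many positions. The exonic reads of HBE1 began at 104 different positions and ended at 111, those of HBG1 at 125 and 137 and those of HBG2 at 138 and 141. The position with the most 5′ ends held 9 reads in HBE1, 14 in HBG1 and 12 in HBG2. In HBA2 and HBA1, reads began at 45 and 52 positions, and 16 reads shared a 5′ end in each gene. Of the reads that overlapped the most abundant alignment of a gene, 68.3% (28 of 41, interval 53.0 to 80.4%) in HBA1 and 49.0% (25 of 51, 35.9 to 62.3%) in HBA2 had ends within 3 nt of it in total. The share was 33.3% (7 of 21, 17.2 to 54.6%) in HBE1, 57.9% (11 of 19, 36.3 to 76.9%) in HBG1 and 61.9% (13 of 21, 40.9 to 79.2%) in HBG2. These counts include the reads of the most abundant alignment itself.

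Globin reads lay mostly in the exons of the representative transcripts. Of the 1,043 sense reads in the bodies of the 8 genes, 996 (95.5%, interval 94.1 to 96.6%) overlapped an exon, 23 of them across an exon edge, and 47 lay wholly in an intron. With the exons of all annotated transcripts, which extend HBG2 and HBE1 far upstream, the share was 39.5% (1,110 of 2,807). Those reads were summed gene by gene, so that a read in overlapping gene bodies was counted for each of them. The 39.5% is therefore not a share of distinct reads. The exonic share was 96.7% (93.4 to 98.4%) in HBE1, 95.1% (91.9 to 97.0%) in HBG1 and 94.0% (90.7 to 96.1%) in HBG2. It was 99.1% (94.9 to 99.8%) in HBA2, 97.1% (91.9 to 99.0%) in HBA1 and 80.0% (58.4 to 91.9%) in HBZ, where 16 of 20 reads were exonic and the other 4 lay on 1 intronic alignment of 18 nt at chr16:203853-203870, whose sequence also occurs in HBZP1. All reads of HBD (11) and HBB (4) were exonic. Over the 441 genes with at least 100 exonic reads the median exonic share was 75.7%. This share is not scaled for intron length, which in the globin genes was 0.259 kb (HBA2) to 1.06 kb (HBZ) in total, so that the values are not directly comparable. Per kb, exons held 46.6 times the reads of introns in HBE1 (7 intronic reads), 32.8 times in HBG1 (14 intronic reads) and 26.8 times in HBG2 (18 intronic reads). The ratio was 48.1 in HBA2 (1 intronic read), 15.5 in HBA1 (3 intronic reads) and 5.32 in HBZ (4 intronic reads).

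No listed alignment spans more than 42 nt of the genome, so that reads spliced across an intron are not among them. Within 10 nt of the exon junctions the mean coverage was 4.60 reads in HBG1 against 10.3 elsewhere in the mRNA, 5.25 against 10.7 in HBG2 and 4.48 against 7.45 in HBE1. In the alpha pair it was 0.725 against 3.97 in HBA2 and 1.18 against 3.77 in HBA1. Coverage near junctions was thus lower in each of these 5 genes.

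Reads on the opposite strand of the globin genes were few. Of 1,048 reads of at least 18 nt in the gene bodies on either strand, 5 (0.477%, interval 0.204 to 1.11%) lay on the opposite strand, namely 3 in HBZ, 1 in HBE1 and 1 in HBD. None lay in HBG1 or HBG2, which at 581 sense reads allows a share of up to 0.516%, and none lay in HBA1 or HBA2, which at 212 sense reads allows up to 1.42%. Over all lengths there were 9 opposite-strand reads against 1,303 sense reads. Among the 441 genes with at least 100 exonic reads, the median share was 0.758% (quartiles 0 to 2.75%), and 159 had no such read. The pooled share of the 8 genes lay within these quartiles, but HBZ, HBD and HBB have fewer than 100 exonic reads. HBZ had 3 opposite-strand reads beside 20 sense reads. In HBE1, HBG1 and HBG2 together the share was 0.125% (interval 0.022 to 0.707%). The 441 genes include HBE1, HBG1, HBG2, HBA1 and HBA2. With all annotated transcripts the share of the 8 genes was 5.58% (166 of 2,973), with 76 opposite-strand reads in each of HBG2 and HBE1. A read in overlapping gene bodies was again counted for each gene. No quartiles are given for that setting, so that the 5.58% has no like value to be set against.

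**Figure D3:**
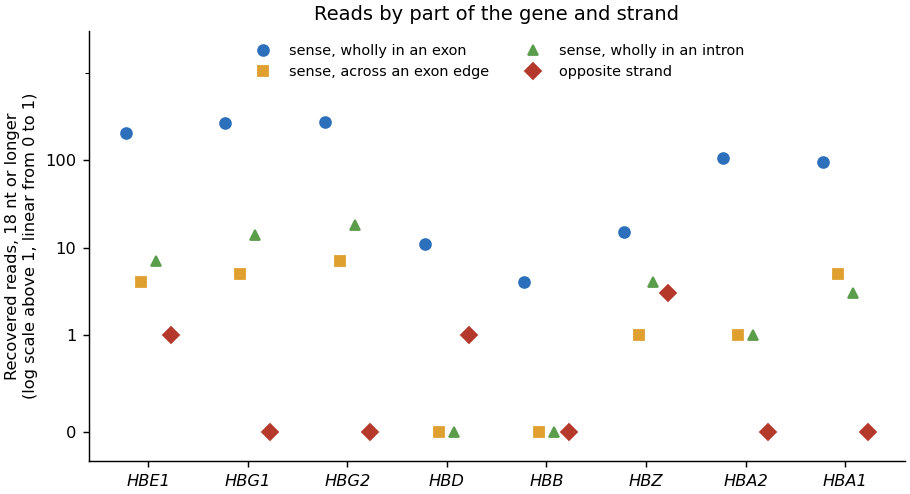
Recovered reads of at least 18 nt (vertical axis, log scale above 1 and linear from 0 to 1) in the bodies of the 8 globin genes, by position and strand: blue circles stand for reads wholly in an exon, orange squares across an exon edge, green triangles wholly in an intron and red diamonds on the opposite strand. Exonic reads exceed each other class in every gene, and the opposite strand has at most 3 reads, in HBZ.

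Globin reads were most frequent at 18 nt (205 reads, 16.4%) and spread over neighbouring lengths, with at most 132 reads (10.6%) at any other length. Over all lengths the median was 20 nt for the 1,247 exonic reads, with quartiles of 18 and 23 nt, and 458 reads (36.7%, interval 34.1 to 39.4%) were of 20 to 24 nt. Over the 441 genes with at least 100 exonic reads, the median share of 20 to 24 nt was 37.9% (quartiles 29.9 to 44.5%) and the median length was 20 nt. These per-gene values keep alignments on annotated small RNA genes. Over all protein-coding exons outside such genes, the share was lower, at 20.9% of reads, with a median length of 18 nt. Counted by alignment it was 31.6%, against 37.5% for the globin exons. Among the globin genes the share of reads was 36.6% in HBE1, 43.6% in HBG1 and 37.1% in HBG2, against 29.3% in HBA2 and 29.2% in HBA1. It was 40.3% (36.7 to 44.0%) in the fetal pair and 29.2% (24.0 to 35.1%) in the alpha pair. Reads on 1 sequence are not independent, and in the alpha pair 1 sequence of 18 nt held 10 reads in HBA2 and 11 in HBA1. Whether the pairs differ was not tested. Counted by alignment, 79.4% of the globin alignments reached 18 nt against 68.2% in all protein-coding exons outside small RNA genes, and counted by reads the shares were 79.9% and 54.7%. Most alignments rested on 1 read, with 74.8% of the globin alignments of at least 18 nt and 76.9% of those in all protein-coding exons.

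Counted once each, 706 globin alignments began with C in 40.8%, against 34.6% of 206,083 alignments in all protein-coding exons. The share of C in the globin mRNAs, weighted by alignments, was 27.9%. The alignments began with G in 11.3%, against 13.2% in all exons and 26.1% in the globin mRNAs weighted in the same way. The last base was G in 36.5%, against 35.8% in all exons. C was thus more frequent, and G less frequent, at the first base of globin alignments than in the globin mRNAs weighted by alignments. Alignments of a gene overlap and are not independent.

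The other annotated genes of the windows held at most 25 exonic reads. HBBP1, a beta-like pseudogene between HBG1 and HBD, had 25 reads (56.9 per kb), a level above those of HBZ, HBD and HBB. HBQ1, which encodes theta globin, had 7, the zeta pseudogene HBZP1 had 6, the non-coding gene BGLT3 had 5, HBM, which encodes mu globin, had 1 and the alpha pseudogene HBAP1 had 0. Of the globins outside red cells, myoglobin (MB) and neuroglobin (NGB) had 0 reads on their own strand and cytoglobin (CYGB) had 1.

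Lists of genes that act with the globins had lower median levels than the globins. Of 9 enzymes of heme synthesis, 6 had at least 10 reads, where 38.7% of all protein-coding genes did, and their median was 5.24 per kb against 1.43 over all genes, led by UROD (76.3 per kb, 91 reads), with PPOX (4.04 per kb) and ALAD (2.24 per kb) lowest. Of 13 genes of globin partners and the red cell membrane, 7 had at least 10 reads, beside the same 38.7% of all genes, with a median of 8.87 per kb. BPGM, which makes the regulator of oxygen affinity 2,3-bisphosphoglycerate, led this list (31.6 per kb, 54 reads), followed by the glycophorin gene GYPC (21.6 per kb, 22 reads). AHSP, the chaperone of free alpha chains, had 2 reads, and SLC4A1, EPB42, CA1 and CA2, which are abundant in mature red cells, had 0. Of 10 regulators of globin genes, 9 had at least 10 reads, again beside 38.7% of all genes, with a median of 15.3 per kb, led by the erythroid factors KLF1 (21.1 per kb, 34 reads) and TAL1 (17.5 per kb, 81 reads). The fetal globin repressor BCL11A had 0 reads, and ZBTB7A, another such repressor, had 27 (4.19 per kb).

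Markers of the red lineage and of other cell types were also counted, although the sample labels name only the line K562. Each of 6 erythroid markers had at least 10 reads, where 38.7% of all protein-coding genes did, although 3 of them are HBG1, HBG2 and HBE1 themselves. EPOR passed with 11 reads (4.56 per kb). The red cell genes SLC4A1, EPB42, CA1 and CA2 (0 reads each) and AHSP (2 reads) were not in this marker list. None of the 4 myeloid, 4 megakaryocyte, 4 lymphoid, 4 hepatic and 4 epithelial markers reached 10 reads, with sums of 3, 9, 1, 2 and 7. In such bulk samples, fewer cells that express a gene and less RNA per cell cannot be told apart.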

How the data were processed

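Small RNA of 3 K562 batches was sequenced. Alignment by the authors used Bowtie2 2.2.9 and the GRCh37 (hg19) build, and per the methods only uniquely mapping reads were retained. The deposited list pools the batches and gives, for each alignment, a count of reads and an RPKM computed by the authors. Every deposited RPKM rests on a total of 54,140,681 reads. Deposited counts divided evenly by the number of near neighbours (total end shift of at most 3 nt) for 1,246,133 of 1,246,133 alignments that have one, and division gave 47,670,688 recovered reads in all. At this depth, 73.6% of listed alignments rest on 1 read. Reads carry no molecular identifiers.

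Exons were those of the MANE Select transcript of each gene in GENCODE release 44 on GRCh37. Reads were assigned to the 5′ UTR, coding sequence or 3′ UTR by their midpoint. Exact matches of each alignment's sequence were counted in the primary assembly on both strands. Per-gene background values cover genes with at least 100 exonic reads and keep alignments on annotated small RNA genes. Those alignments were left out of the background over all protein-coding exons, for totals, lengths and ends. A count of 0 was taken to allow 3 counts.

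The members and lists were chosen with earlier results of these data known. Named were the 8 members, the other genes of the windows, list members of highest and lowest level (1 of which is not reported here), the 3 genes next above and below HBG2, and for each member the alignment with the most reads. Single-match and 5′ UTR alignments and AHSP were named after their values were seen. Alternatives in read length, counting, matches, exon overlap and transcripts were tried. No test between samples was possible. Steps were tested on simulated data, with 2,971 of 2,971 neighbour numbers, 8,667 of 8,667 exonic reads and 401 of 401 match counts recovered. Python 3.11.15, numpy 2.4.6, pandas 2.3.3, numba 0.67.0 and scipy 1.17.1 were used.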

Additional observations from a re-analysis of the deposited data

Results flagged for a closer look

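In the globin windows, 12 alignments outside the sense exons of the 8 genes held more reads than the 3 counts that a count of 0 allows. There are no control samples for them, and their source was not tested. On the strand of the beta-like genes, an alignment between HBG1 and HBD at chromosome 11, 5261520 to 5261536, held 33 reads, more than any alignment in a globin exon, on a sequence of 17 nt with 7 exact matches in the genome. Others on that strand held 4 reads (5263372 to 5263389) and 5 reads (5267343 to 5267358), and 2 on the opposite strand held 4 reads each (5246408 to 5246425 and 5265037 to 5265054).

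On chromosome 16, between HBZ and HBA2, an alignment of 16 nt at 212216 to 212231 on the minus strand, opposite to the alpha-like genes, held 74 reads, and shorter ones at the same start held 27 and 6 reads. An alignment of 17 nt at 216825 to 216841 on the minus strand held 50 reads. The clusters of overlapping alignments around these sites held 107 and 50 of the 209 opposite-strand reads of the alpha-like window, whereas the bodies of HBA1 and HBA2 had none. On the plus strand, a nearly complementary alignment at 212215 to 212230 held 8 reads, one at 209656 to 209672 held 4 reads, and one in an intron of HBZ at 203853 to 203870 held 4 reads.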

How the results depend on the processing

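The alternatives were applied to 7 summary results. Of 45 values, 34 stayed within counting error or 1.5 times of the reported value and 11 did not. The number of globin genes with at least 10 exonic reads was 4 with single-match sequences only, in place of 7. The exonic share of 95.5% became 98.1% with deposited reads, 96.7% with at least 2 reads per alignment and 93.3% with alignments wholly inside an exon. With all transcripts, which extend HBG2 and HBE1 far upstream, it became 39.5%. That value sums reads gene by gene over bodies that overlap, so that it is not a share of distinct reads. The opposite-strand share of 0.477% became 0.138% with deposited reads and 5.58% with all transcripts, the latter again summed gene by gene over overlapping bodies. The share of 20 to 24 nt became 46.1% with single-match sequences. The share of HBE1, HBG1 and HBG2 among beta-like reads became 99.2% with deposited reads. The alpha-like share of 22.5% became 17.0% at 20 nt or longer and 10.7% with single-match sequences. The cause of the other changes was not tested.

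No paired analysis was possible because the 3 batches are pooled in 1 set of values. For the same reason no value without 1 of the batches exists, and HBB, HBD and HBZ have at most 16 exonic reads, which limits the precision of their values.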

Other observations

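NGB, which encodes neuroglobin and had 0 exonic reads on its own strand, had 1,583 reads of at least 18 nt on the opposite strand. Of these, 1,416 lay on 1 alignment of 18 nt at chromosome 14, 77732574 to 77732591, within the annotated miRNA gene MIR1260A, and 1,580 lay within 3 nt of it.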
